A study of Mus musculus with 8 samples.

Results

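Lysosomal enzymes and membrane proteins were examined as a list of 35 genes in dermal fibroblasts of mice on a high fat diet (HFD) and mice on a normal diet (ND). The genes were chosen by name and role, with earlier results of these data known. Of the 35, 34 had a probe set that names only them, among 17097 genes measured. The tetraspanin gene Cd63 was not analysed here. The list holds 11 cathepsins, 7 glycosidases, 7 lipid enzymes and cofactors, 6 membrane proteins and 4 genes of the proton pump.

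The HFD group was 4 female mice that ate the high fat diet for 6 months from the age of 2 months, and the ND group was 4 female mice of the same age that ate the control diet for as long. All were killed on 1 day. Skin was freed of the layer under the dermis and digested with collagenase, and 10000 cells per specimen were sorted as positive for Pdgfra and CD34 and negative for CD45, CD117, CD24, CD31 and EpCam. After 20 cycles of amplification each specimen was hybridised to its own array. The labels mark ND 4 as excluded by quality control without giving a reason, so HFD 1 to 4 were compared with ND 1 to 3. Strain, genotype and the make-up of the diets are not given in the labels used here, and the specimens are taken as separate mice because the design text gives 4 animals per diet. The values are log2 expression on the scale the authors deposited. A change is HFD minus ND in log2, and a gene passed when the limma p-value adjusted over all genes was under 0.05.

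The lysosome is the acid compartment in which cells break down protein, glycans and lipids that arrive by endocytosis and autophagy. A vacuolar proton pump acidifies it, heavily glycosylated membrane proteins line it, and soluble hydrolases reach it through mannose 6-phosphate receptors. In the dermis fibroblasts use cathepsins to digest collagen they have taken up, and glycosidases to degrade proteoglycans and glycolipids. Transcription factors of the Tfeb and Tfe3 family bind a short promoter element of many lysosomal genes, the CLEAR element, which contains the E-box CACGTG.

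The E-box with 1 flanking base (TCACGTG on either strand) was searched in RefSeq promoter windows of the GRCm38.p6 build, which run from 250 bases before to 50 bases after a start site. Windows were found for 30 of the 35 members, and 10 of the 30 (33.3%) held the motif, against 787 of 13605 measured genes with a window (5.78%). The plain E-box CACGTG, which includes these matches, was in 12 of the 30 (40%) against 1389 of the 13605 (10.2%). The following windows are shown because 3 of the 5 members that were lower in HFD hold the motif (Gaa, Naglu and Glb1), as do Gla and Lamp1, which did not pass. Capitals mark the matches, and each stretch is written 5′ to 3′ on the strand of its gene.
Gaa, chr11:119267792-119267858, plus strand: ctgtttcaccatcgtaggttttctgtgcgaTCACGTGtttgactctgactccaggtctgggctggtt
Naglu, chr11:101069990-101070056, plus strand: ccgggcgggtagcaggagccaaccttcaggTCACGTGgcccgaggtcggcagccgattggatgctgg
Glb1, chr9:114400999-114401065, plus strand: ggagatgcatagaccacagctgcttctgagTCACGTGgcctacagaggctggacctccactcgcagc
Gla, chrX:134601163-134601255, minus strand: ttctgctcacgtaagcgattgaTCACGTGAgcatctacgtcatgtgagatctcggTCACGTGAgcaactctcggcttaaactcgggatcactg
Lamp1, chr8:13159069-13159181, plus strand: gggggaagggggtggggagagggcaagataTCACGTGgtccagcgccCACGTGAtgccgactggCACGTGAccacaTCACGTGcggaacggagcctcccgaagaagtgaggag
The match begins 141 bases before the start site in Gaa, 74 in Naglu and 49 in Glb1. Gla holds 2 such E-boxes and Lamp1 holds 4. The window of Gm2a, also lower in HFD, does not hold the motif, and Npc1 had no window. A match describes the sequence and was not tested as a binding site.

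In HFD fibroblasts 5 of the 34 members were lower than in ND fibroblasts and 0 were higher, while 29 did not pass. Of all genes measured, 2.73% were lower and 2.62% were higher by the same rule, beside 14.7% of the members lower. Of the 34 members 30 lay above the median gene, and with the genes below it left out 6 of these 30 (20%) were lower and 2 (6.67%) higher, beside 8.04% of all genes lower and 8.17% higher. At an unadjusted p under 0.05 there were 9 members lower (26.5%), beside 9.83% of all genes. By that rule 5 members were higher (14.7%), beside 12.3% of all genes. The share of members higher was thus near that of all genes. The 5 lower genes were the α-glucosidase Gaa, the heparan sulfate enzyme Naglu, the β-galactosidase Glb1, the ganglioside activator Gm2a and the cholesterol exporter Npc1. Their changes lay between −0.34 and −0.67 log2, which is 1.26-fold to 1.6-fold. The median change of the 34 members was −0.03 log2, beside 0.02 over all genes, with 19 members negative and 15 positive.

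The 4 HFD arrays lay entirely below the 3 ND arrays in 9 of the 34 members (26.5%), where 7.99% of all genes did so. They lay entirely above in 4 members (11.8%), where 9.95% of all genes did so. The 9 comprise the 5 genes past the threshold and Ctsa, Ctsb, Ctso and Grn. In a bulk sample, fewer cells of a type and less RNA per cell cannot be told apart.

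**Figure D1:**
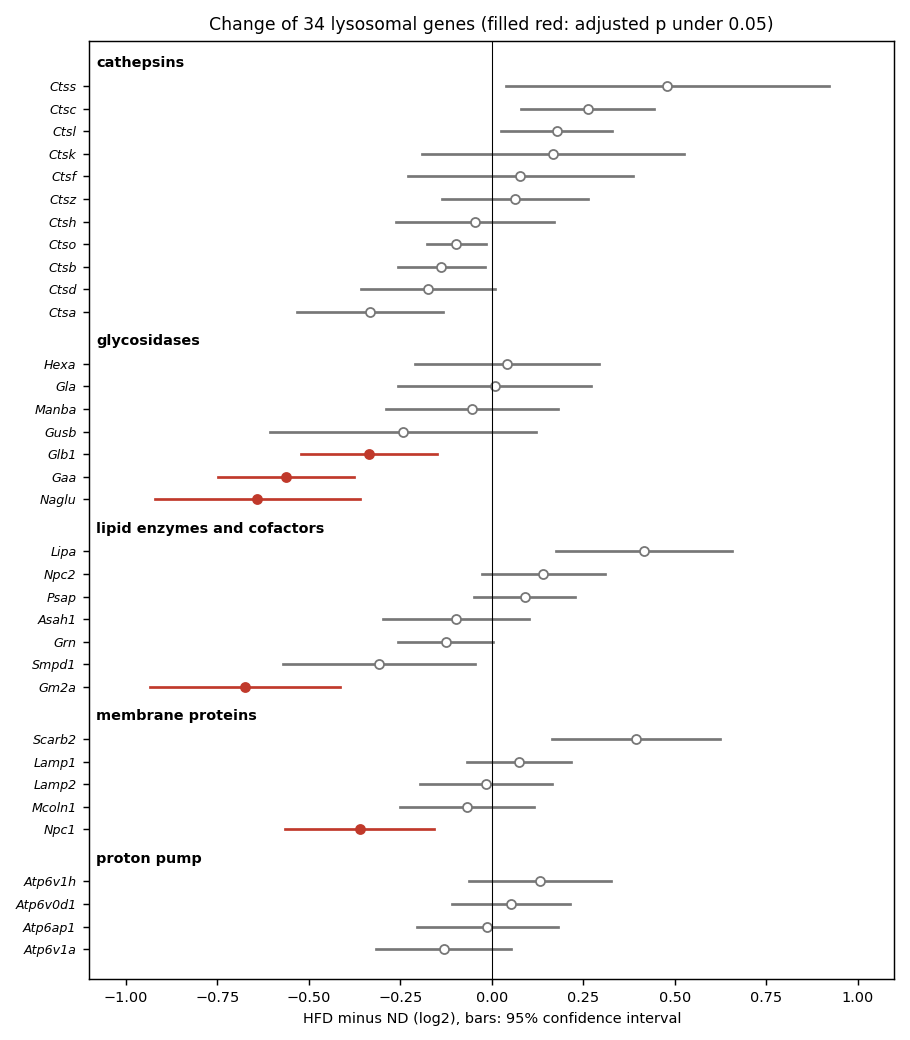
Change of each of the 34 measured members (HFD minus ND, log2; circles) with its 95% confidence interval (bars), grouped by role. The 5 filled red circles are the members with an adjusted p under 0.05, all left of 0, and 3 of them are glycosidases.

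Measures of RNA quality, of the excluded array and of other cell types stand beside the results. A sign of RNA quality, the 3′ minus 5′ signal of Actb and Gapdh controls, was −0.44 to −0.38 log2 in HFD. In ND 1 to 3 it was −0.29, −0.335 and −0.18, without overlap with HFD and with ND 3 the furthest. In ND 4 it was −0.37. With this signal as a covariate 0 members and 0 of all genes passed, and the changes of the 5 lower members were −0.73 to −0.17 (limma adjusted p = 0.999 for each). Its part in the results was not tested further. ND 4 entered no comparison, and for all 5 lower members its value was nearer the HFD mean than the ND mean, as for 407 of all 466 genes lower in HFD (87.3%). With all 8 arrays 0 members passed. Of 17 keratinocyte markers 16 had a positive change. The median over the 17 was 0.27 and the highest was 1.55, for Perp (limma adjusted p = 0.143). By the test 0 of the markers were higher and Jup was lower (−0.42). Their mean level was 6.77 to 8.02 in HFD and 6.76 to 7.24 in ND. With their mean as a covariate none of the 5 passed, and their changes were −0.59 to −0.33. Whether keratinocyte RNA had a part in any result was not tested further. The 15 macrophage markers averaged 5.5 to 5.62 in HFD and 5.52 to 5.55 in ND, 13 of them below the median gene of 6.77, with Ptprc at 4.03 in HFD and 4.08 in ND. Of these markers Tyrobp passed, with a change of 0.32 (adjusted p = 0.0352). Of the sort genes, Cd34 was at 12.10 in HFD and 12.08 in ND, and Pdgfra was dim, at 6.27 in HFD and 5.92 in ND. Of all 9 fibroblast markers 1 was lower in HFD, the matrix proteoglycan gene Lum (−0.34, limma adjusted p = 0.0358), and 0 were higher, with a median change of 0.01. Col1a2 and Dcn, at −0.19 and −0.06, did not pass, though all HFD arrays were below all ND arrays. Pdgfra, at 0.34, did not pass either (limma adjusted p = 0.103), with all HFD arrays above all ND arrays. By this measure 3 of the 9 markers lay entirely below and 1 entirely above, beside 7.99% and 9.95% of all genes.

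Glycosidases, which cleave sugars from glycans and glycolipids one residue at a time, held 3 of the 5 changes. Of 7 measured, 3 fell (42.9%), 0 rose and 4 did not pass, with a median change of −0.24. Of all genes 2.73% were lower, or 8.04% with the genes below the median gene left out. Gaa, the acid α-glucosidase that degrades glycogen in the lysosome, was at 9.75, 9.76, 9.71 and 9.81 in HFD 1 to 4, against 10.46, 10.21 and 10.29 in ND 1 to 3. All HFD arrays were below all ND arrays, and the HFD arrays lay within 0.1 of each other. The mean was 9.76 ± 0.04 (SD, n = 4) in HFD and 10.32 ± 0.13 (SD, n = 3) in ND, a change of −0.56 (SE 0.08, limma adjusted p = 0.0224), or 1.48-fold lower. ND 4 was at 9.91, between the groups.

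Naglu, which removes N-acetylglucosamine from heparan sulfate, was at 8.56, 8.06, 8.24 and 8.51 in HFD 1 to 4, against 9.01, 9.04 and 8.9 in ND 1 to 3. The groups did not overlap, and HFD spread more widely than ND, with HFD 2 the lowest. The change was −0.64 (SE 0.13, limma adjusted p = 0.0283), or 1.56-fold lower. ND 4, at 8.57, lay just above the highest HFD array.

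Glb1, the acid β-galactosidase that acts on ganglioside GM1 and keratan sulfate, was at 7.52, 7.44, 7.6 and 7.6 in HFD 1 to 4, against 7.94, 7.84 and 7.85 in ND 1 to 3. Its change of −0.34 (SE 0.08, limma adjusted p = 0.0473) was 1.26-fold lower, without overlap. It lay close to the threshold and no longer passed when any 1 array was left out, with changes of −0.36 to −0.30. Gaa, Naglu and Glb1 each have a single probe set.

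The other glycosidases did not pass. Hexa, the α subunit of β-hexosaminidase, was at 11.03, 11.01, 10.94 and 11.2 in HFD, against 11.1, 11.19 and 10.72 in ND. ND 3 was lowest and the groups overlapped, and the change of 0.04 had a 95% interval of −0.21 to 0.29. Gla, the α-galactosidase A, differed by 0.01 (interval −0.26 to 0.27) and Manba, the β-mannosidase, by −0.05. Gusb, the β-glucuronidase, differed by −0.24 (interval −0.61 to 0.12), with ND 1 at 8.48 far above ND 2 and ND 3 at 7.85 and 7.76.

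**Figure D2:**
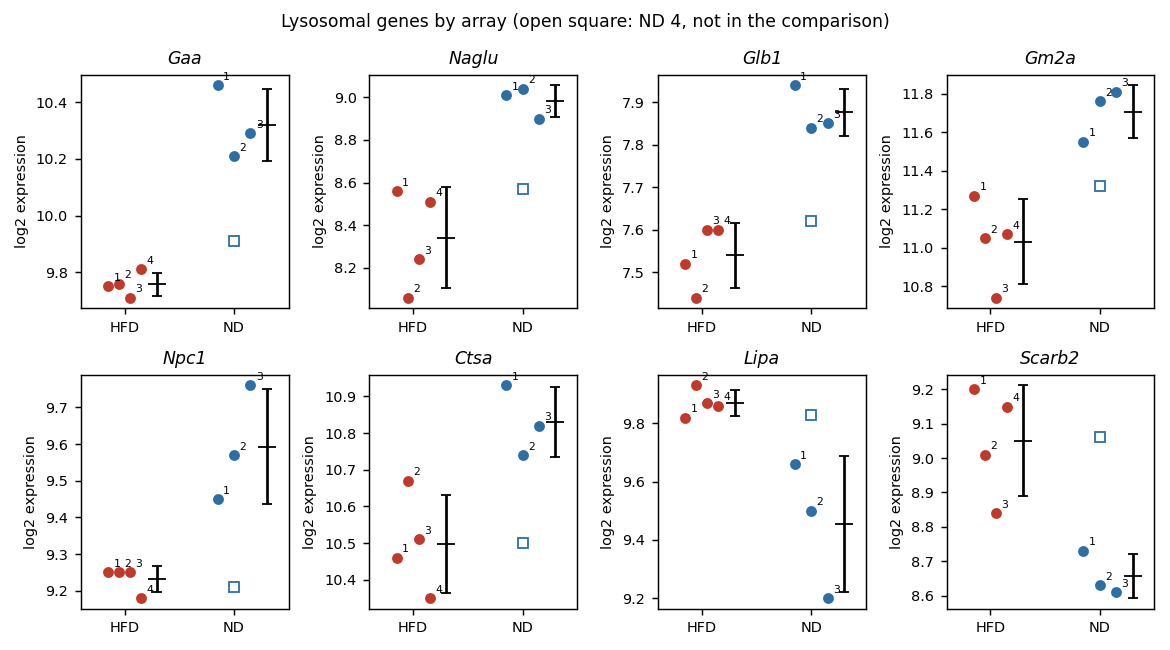
Deposited log2 expression of 8 members in each array, with HFD left and ND right (filled points, numbered by specimen), and mean ± SD beside them. The open square is ND 4, outside the comparison: for Gaa, Naglu, Glb1 and Gm2a it lies between the groups, and for Npc1 it lies at 9.21, among the HFD arrays.

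Among the lipid enzymes and cofactors 1 of 7 fell and 0 rose. This share (14.3%, beside 2.73% of all genes) rests on 1 gene. Gm2a is the activator that presents ganglioside GM2 to β-hexosaminidase A. It was at 11.27, 11.05, 10.74 and 11.07 in HFD 1 to 4, against 11.55, 11.76 and 11.81 in ND 1 to 3, and no HFD array reached the lowest ND array. Its mean was 11.03 ± 0.22 (SD, n = 4) in HFD and 11.71 ± 0.14 (SD, n = 3) in ND. The change was −0.67 (SE 0.12, limma adjusted p = 0.0224), 1.6-fold lower. A second probe set differed by −0.58 (adjusted p = 0.032 over all probe sets), and the dimmest one, at 5.7, by 0.09. The mean of all 3 differed by −0.39 and did not pass (limma adjusted p = 0.0534).

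Lipa, the acid lipase that hydrolyses cholesteryl esters and triglycerides from lipoproteins, was at 9.82, 9.93, 9.87 and 9.86 in HFD, against 9.66, 9.5 and 9.2 in ND. All HFD arrays were above all ND arrays, but the ND arrays spread by over 0.4 and the change of 0.42 (SE 0.11) had an adjusted p = 0.0533. A second probe set differed by 0.38 and the dimmest, at 5.62, by −0.11. Lipa passed in 4 of 21 other settings, among them the fit without ND 1. Its change was 0.29 without ND 3 and 0.12 with the 3′ minus 5′ covariate.

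The sphingolipid genes of this group did not pass. Smpd1, the acid sphingomyelinase, was at 7.73, 7.32, 7.29 and 7.35 in HFD and 7.62, 7.76 and 7.81 in ND. HFD 1 lay with the ND arrays, and the change of −0.31 (SE 0.12) had an adjusted p = 0.159. Without HFD 1 Smpd1 passed. Asah1, the acid ceramidase, differed by −0.10 (interval −0.30 to 0.10). Psap, the precursor of the saposins that assist sphingolipid hydrolysis, was at 12.46, 12.52, 12.46 and 12.56 in HFD and 12.49, 12.45 and 12.29 in ND. Its groups overlapped and the change of 0.09 had an interval of −0.05 to 0.23. Npc2, which hands cholesterol to Npc1, differed by 0.14 (adjusted p = 0.314). Grn, the progranulin gene, differed by −0.13 (adjusted p = 0.241) while its other probe set, of nearly equal brightness, differed by 0.13.

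Of the 5 membrane proteins measured 1 fell and 0 rose. This share (20%, beside 2.73% of all genes) again rests on 1 gene. Npc1, the transporter that moves cholesterol out of the lysosome, was at 9.25, 9.25, 9.25 and 9.18 in HFD 1 to 4, against 9.45, 9.57 and 9.76 in ND 1 to 3. The HFD arrays were nearly equal and lay below every ND array, of which ND 3 was the highest. The change was −0.36 (SE 0.09, limma adjusted p = 0.0499), just inside the threshold, and Npc1 passed in 1 of the 7 fits that left out an array. With the 3′ minus 5′ covariate its change was −0.17, where those of Gaa and Gm2a were −0.58 and −0.68.

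Scarb2, also called Limp2, carries the β-glucocerebrosidase to the lysosome. It was at 9.2, 9.01, 8.84 and 9.15 in HFD, against 8.73, 8.63 and 8.61 in ND. The groups did not overlap, and the change of 0.39 (SE 0.10) had an adjusted p = 0.0554. Its dimmer probe set differed by 0.42 and passed when every probe set was tested alone (limma adjusted p = 0.0466 over all probe sets).

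The structural membrane glycoproteins did not pass. Lamp1 was at 11.36, 11.4, 11.37 and 11.5 in HFD and 11.37, 11.34 and 11.29 in ND. These values overlapped, and the change of 0.07 had a 95% interval of −0.07 to 0.22. Lamp2 differed by −0.02 (interval −0.19 to 0.16), and its other 2 probe sets by −0.11 and −0.09. Mcoln1, the lysosomal calcium channel, differed by −0.07 (interval −0.25 to 0.12).

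None of the 11 cathepsins passed, and 6 had an unadjusted p under 0.05, 3 lower and 3 higher, where 22.1% of all genes did so. Cathepsins are the main lysosomal proteases. Ctsa is a serine carboxypeptidase that also protects Glb1 and neuraminidase in a complex. It was at 10.46, 10.67, 10.51 and 10.35 in HFD, against 10.93, 10.74 and 10.82 in ND, without overlap, and its change of −0.33 (SE 0.09) had an adjusted p = 0.0614. Its other probe set differed by −0.19.

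Among the cysteine cathepsins the signs were mixed. Ctsb was at 11.98, 12.01, 12.01 and 12.01 in HFD and at 12.18, 12.08 and 12.16 in ND. All HFD arrays were lower, but the change was −0.14 (SE 0.05, adjusted p = 0.164). Its other probe sets differed by −0.08, −0.19 and, in the dimmest, 0.17. Ctsl, an endopeptidase, was at 12.26, 12.39, 12.29 and 12.41 in HFD and 12.28, 12.14 and 12.06 in ND. It differed by 0.18 (SE 0.07, adjusted p = 0.159), with HFD 1 below ND 1. Ctsk, the strongest collagenase among the cathepsins, differed by 0.17 (interval −0.19 to 0.53), with ND 3 at 10.97 and HFD 2 at 11.21 below all other arrays. Ctsh, Ctsz and Ctsf differed by −0.05, 0.06 and 0.08, and the aspartic protease Ctsd by −0.17 (adjusted p = 0.249).

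The remaining cathepsins were dim, below the median gene. Ctsc, which activates granule proteases of leukocytes, was at 6.06, 6.07, 6.26 and 6.23 in HFD and 5.77, 5.98 and 5.93 in ND. The groups did not overlap and its 3 probe sets all differed upward (0.26, 0.33 and 0.37), but the adjusted p was 0.0893. Ctss, a cathepsin of antigen-presenting cells, was at 6.19, 5.16, 5.48 and 5.29 in HFD and 5.05, 5.16 and 4.94 in ND. HFD 1 stood above the others, and the change of 0.48 (SE 0.20) had an adjusted p = 0.189. Of the 15 macrophage markers 8 had a positive and 7 a negative change, with a median of 0.01: Tyrobp passed (0.32), while Csf1r differed by −0.21 and C1qc by −0.14 without passing. Whether other cells carried Ctsc or Ctss was not tested. Ctso, at 4.19 in HFD and 4.29 in ND, was near the low end of the array.

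Of the 4 proton pump genes measured 0 passed and 0 had an unadjusted p under 0.05, with changes of −0.13 to 0.13. Atp6v1a, the catalytic subunit that hydrolyses ATP, was at 9.37, 9.48, 9.41 and 9.36 in HFD and 9.54, 9.44 and 9.63 in ND. HFD 2 lay above ND 2, and the change of −0.13 had an interval of −0.32 to 0.05. Atp6v1h, a regulatory subunit, was at 7.32, 7.54, 7.3 and 7.45 in HFD and 7.27, 7.28 and 7.26 in ND. It was higher in each HFD array by a small amount (0.13, interval −0.06 to 0.33). Atp6v0d1, of the membrane sector, was at 10.83, 10.82, 10.82 and 10.93 in HFD and 10.9, 10.73 and 10.76 in ND, a change of 0.05 (interval −0.11 to 0.21). The accessory subunit Atp6ap1 differed by −0.01 (interval −0.20 to 0.18).

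Members with several probe sets often disagreed in sign. Of 18 such members 6 had the same sign in all probe sets and 12 did not, and in 0 of these 12 was a change opposite to that of the brightest probe set under an unadjusted p of 0.05. Ctsa, Ctsc, Ctsl, Lamp2, Psap and Scarb2 were the 6 of 1 sign. A further 16 members have 1 probe set, so they carry no such check.

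**Figure D3:**
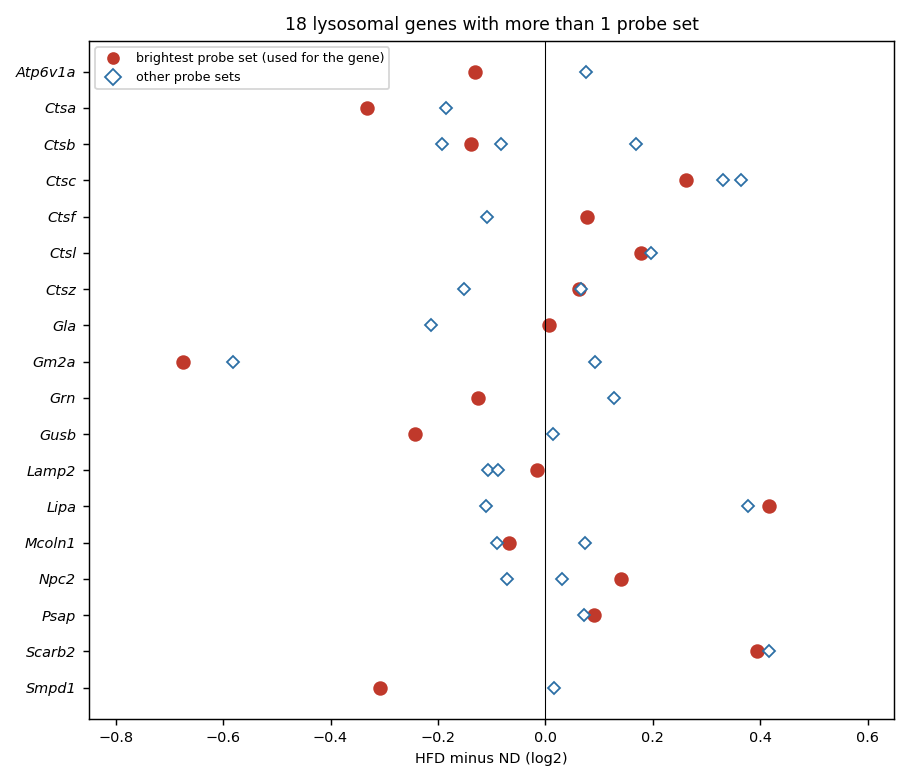
Change (HFD minus ND, log2) of every probe set of the 18 members with more than 1. The filled circle is the brightest, used for the gene, and diamonds are the others: both brighter probe sets of Gm2a lie at −0.58 or below, and both of Scarb2 lie near 0.4.

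The 5 lower members kept their sign in each of 21 other settings, but their calls depended on single arrays. Without ND 3, HFD 3 or HFD 4 none of the 34 members passed, where 11, 6 and 9 of all 17097 genes did. Leaving out ND 2 or HFD 2 left Gaa and Gm2a, while leaving out ND 1 left 4 members and leaving out HFD 1 left 3 of the 5. Over the 7 fits without an array, the change was −0.62 to −0.49 for Gaa, −0.75 to −0.58 for Gm2a, −0.71 to −0.55 for Naglu and −0.43 to −0.28 for Npc1.

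**Figure D4:**
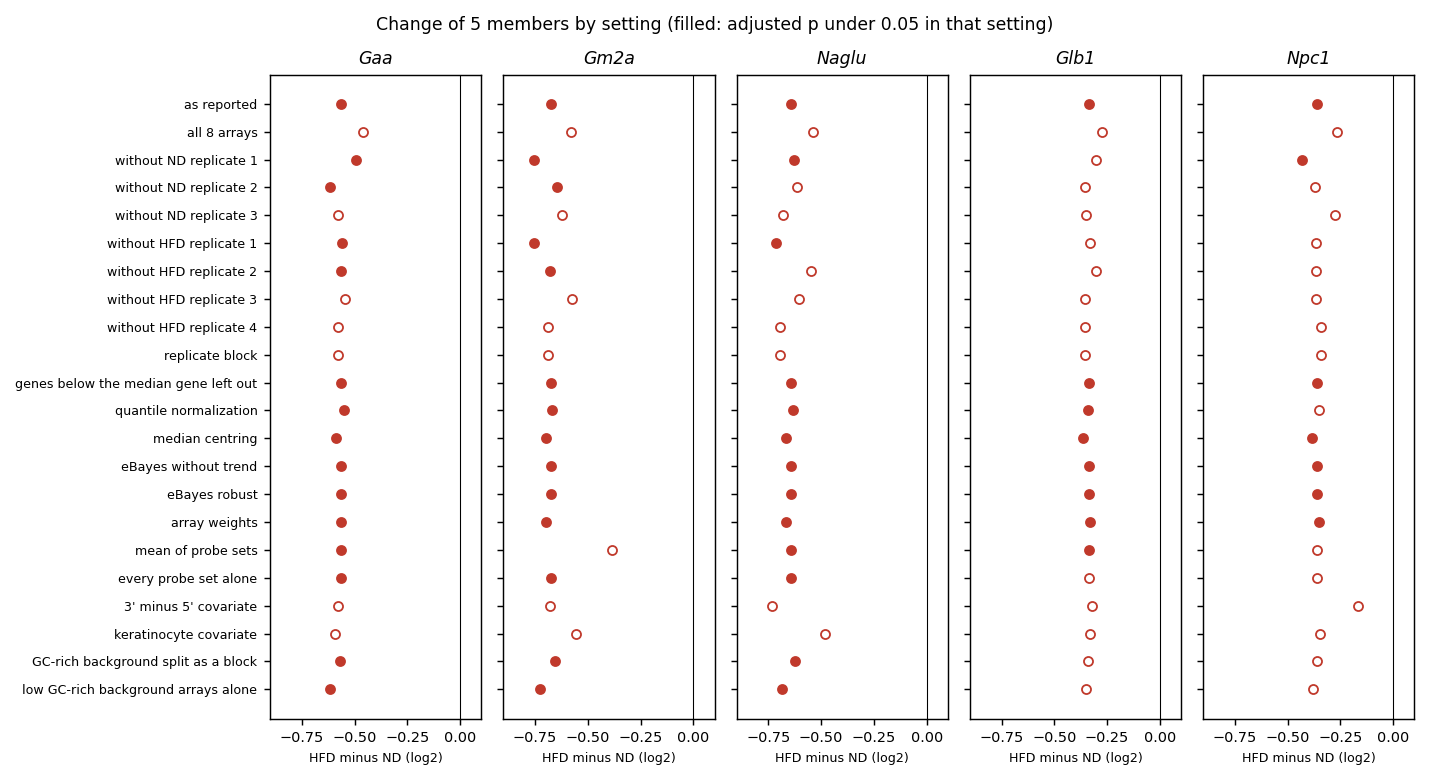
Change (HFD minus ND, log2) of the 5 lower members in the reported fit and in 21 other settings. Filled points have an adjusted p under 0.05 in that setting; all points lie left of 0, and Glb1 and Npc1 are filled in the fewest.

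A wider list of 110 further lysosomal genes, of which 91 were measured, held 6 lower and 3 higher genes in HFD and 82 that did not pass (6.59% lower and 3.3% higher, beside 2.73% and 2.62% of all genes). The share higher was near that of all genes. Its median change was −0.01. Of the genes that did not pass, Gnptab, Scpep1 and Ppt1 had dimmer probe sets that were lower when every probe set was tested alone. A dimmer probe set of Clcn7 was higher by that test (0.45, limma adjusted p = 0.0384 over all probe sets). Fnip1 differed by 0.50 in its brightest probe set and by −0.52 in its dimmest (limma adjusted p = 0.0273 over all probe sets). Of 26 other hydrolases and their modifier 3 fell (11.5%) and 1 rose (3.85%). Tpp1, a tripeptidyl peptidase, was at 9.65, 9.52, 9.57 and 9.48 in HFD, against 10.16, 10.01 and 10.23 in ND, a change of −0.58 (SE 0.09, limma adjusted p = 0.0224). The nuclease Pld3 changed by −0.45 and the hyaluronidase Hyal1 by −0.41, both without overlap. Sumf1, the enzyme of the endoplasmic reticulum that activates all sulfatases, was at 9.07, 9.18, 9.02 and 9.07 in HFD, against 8.33, 8.5 and 7.79 in ND. It rose by 0.88 (SE 0.15, limma adjusted p = 0.0224), and its other probe set by 0.84. With the 3′ minus 5′ covariate the change of Sumf1 was 0.29 and that of Tpp1 −0.39.

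Of 21 other membrane genes 2 fell (9.52%, beside 2.73% of all genes). These were the amino acid transporter Slc36a1 (−0.35) and Cln8 (−0.57), which moves lysosomal enzymes out of the endoplasmic reticulum. Of 12 other pump genes 0 passed, and of 4 cystatins, which inhibit cysteine cathepsins, 0 passed, with Cst3 at 11.44 in HFD and 11.48 in ND. Among 28 sorting and regulatory genes Vps33a, of the fusion machinery, rose by 0.68 and Lamtor5, of the Ragulator complex, by 0.46, while Rragd, a GTPase that recruits mTORC1, fell by 0.33 (SE 0.08, limma adjusted p = 0.044). Of the 28, 7.14% rose and 3.57% fell, beside 2.62% and 2.73% of all genes. The dimmer probe set of Vps33a differed by 0.14, that of Rragd by −0.04 and that of Cln8 by −0.25. With the mean of probe sets Vps33a, Rragd and Cln8 did not pass. With the 3′ minus 5′ covariate the change was 0.12 for Vps33a, 0.24 for Lamtor5 and −0.22 for Cln8. Rragd and Slc36a1 passed in 0 of the 7 fits that left out an array. ND 4 was nearer the HFD mean in 8 of these 9 genes.

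The regulators themselves did not pass. Tfeb was dim, at 5.65, 5.29, 5.34 and 5.6 in HFD and 5.47, 5.49 and 5.31 in ND, a change of 0.05. Tfe3 was between 9.98 and 10.04 in HFD and between 9.95 and 10.19 in ND, a change of −0.06 (interval −0.24 to 0.12). Mitf, a relative of Tfeb, was at 9.15, 8.71, 8.43 and 8.41 in HFD and 9.3, 9.12 and 9.47 in ND. Its HFD 1 array overlapped ND, and its change of −0.62 (SE 0.17) had an adjusted p = 0.0638. Mitf passed in 4 of 21 other settings, among them the arrays with low GC-rich background alone (−0.87). With the 3′ minus 5′ covariate the change of Mitf was −0.34. Its dimmer probe set differed by −0.10.

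**Figure D5:**
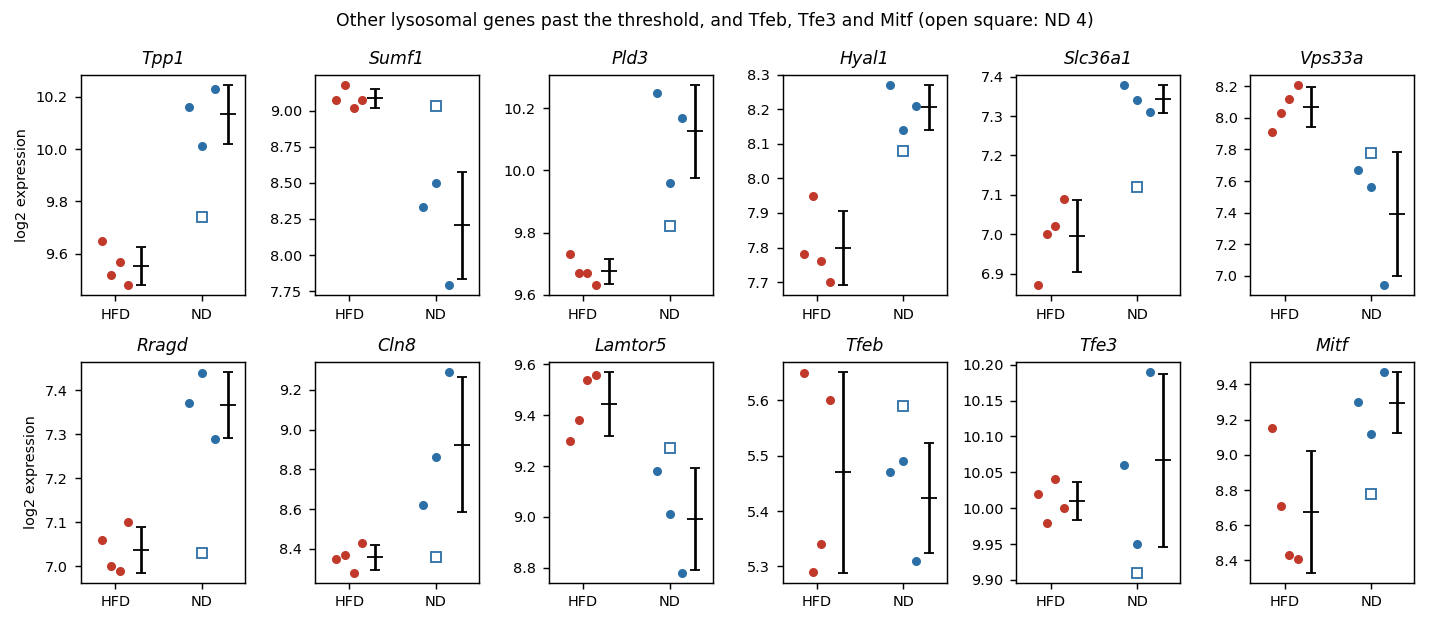
Log2 expression in each array of the 9 further lysosomal genes past the threshold and of Tfeb, Tfe3 and Mitf, with HFD left, ND right and mean ± SD beside the points. The open square is ND 4; Sumf1, Vps33a and Lamtor5 are the 3 that were higher in HFD.

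Members with the motif TCACGTG in their window numbered 10, of which 3 were lower, with a median change of −0.15 and a range of −0.64 to 0.07. The 19 measured members whose windows lack it had a median of 0.06, a range of −0.67 to 0.48, and 1 lower. Of all genes 2.73% were lower by the same test. The range of those with the motif lay inside that of the members without it, and the split was not tested. Of the 84 further lysosomal genes with a window 20 held the motif (23.8%), among them Sumf1 and Vps33a, which rose, and Slc36a1, which fell.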

How the data were processed

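The deposited table holds log2 values for 45141 probe sets on 8 arrays, from 3.56 to 13.5. RMA and affy are the tools that the authors name, per the submitters' processing notes. Their versions, their settings and a genome build are not given in the sources used here. Quartiles differed by at most 0.04 between arrays, so the deposited log2 values were used as they are, and a change in total RNA per cell would not be visible. Genes were assigned through the platform annotation of the probe sets (28898 with 1 gene symbol, 551 with several), and symbols were matched by Entrez identifier for 28689 through the GRCm38.p6 table. Each of 17097 genes was represented by its brightest probe set over the 7 arrays compared. HFD 1 to 4 and ND 1 to 3 were fitted across all genes in limma 3.58.1 (R 4.3.3; lmFit, eBayes with trend), with Benjamini-Hochberg adjustment over all genes and a threshold of 0.05. The p-values measure the spread between these arrays, whose number limits the precision.

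The members, lists and alternatives were chosen with earlier results of these data known. By rule, members past the threshold and, in each role, the 2 with the smallest p and the one with the highest signal are given by array. Ctsb, Ctsk, Ctss, Gusb and Smpd1 were added after their values were seen. Of the further lysosomal genes, those past the threshold and Tfeb, Tfe3 and Mitf are named. Promoter sequences come from RefSeq (GRCm38.p6). No protein sequences were used here. Figures were drawn with matplotlib 3.10.9.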

Additional observations from a re-analysis of the deposited data

Results flagged for a closer look

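In the 4 HFD arrays, 46 genes were screened for 1 array with a large gap to the other 3. The gap was taken as a share of the range of all 4, and 4 members were flagged, at 0.864 to 1. Chance flags about 1 in 20 by this rule. Smpd1 was at 7.73 in HFD 1 and 7.29 to 7.35 in the others. Atp6v0d1 was at 10.93 in HFD 4 and 10.82 to 10.83 in the others. For Npc1 and Ctsb the gap is small on the log2 scale and makes up the whole range, since the other 3 values are equal at the decimals deposited. Npc1 was at 9.18 in HFD 4 and 9.25 in the others, and Ctsb was at 11.98 in HFD 1 and 12.01 in the others.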

How the results depend on the processing

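The number of members lower in HFD, 5 as reported, was 0 with all 8 arrays, 0 with the replicate block, 0 with the 3′ minus 5′ covariate and 0 with the keratinocyte covariate. It was 3 with the mean of probe sets, 3 with every probe set tested alone, 3 with the arrays split by GC-rich nonspecific background as a block, 3 on the low-background arrays alone and 9 at an unadjusted p under 0.05. Without 1 array it ranged from 0 to 4. The number higher, 0 as reported, was 2 without the genes below the median gene, 2 with quantile normalization, 1 each with eBayes without trend, array weights, the mean of probe sets and the keratinocyte covariate (Ctss), 3 at an adjusted p under 0.1, 5 at an unadjusted p under 0.05, and 0 to 1 without 1 array. The median change of the members, −0.03, was −0.13 with the 3′ minus 5′ covariate, −0.0887 with the keratinocyte covariate, 0.0267 on the low-background arrays alone and −0.08 to 0.0017 without 1 array. Genes called overall numbered 914 as reported, 6 with all 8 arrays, 1 with the replicate block, 0 and 27 with these covariates, 400 with the mean of probe sets and 1387 of 8554 without the dimmer genes. The cause of these shifts was not tested. The replicate block rests on specimen numbers alone: same-numbered arrays correlated at −0.18, −0.29 and −0.05 after removing group means, so the numbers were not taken as pairs. In that block HFD 4 had no ND partner, so its changes equal those of the fit without HFD 4 (member median −0.05 in both). The 2 settings by background were chosen after seeing the data.

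The sign of some genes that did not pass turned. Hexa was −0.1 without ND 3, −0.01 without HFD 4, −0.01 with the replicate block and −0.39 with the 3′ minus 5′ covariate. With that covariate Psap was −0.0869, Lamp1 −0.0125, Tfeb −0.11 and Tfe3 0.14. Tfeb was −0.0133 to 0.107 without 1 array, negative without ND 3 or HFD 1, and Tfe3 was 0.005 without ND 3. Hexa was 0 with all 8 arrays. Each other gene named by rule kept its sign in the settings run. Of 586 pairs of a named gene and a setting, 152 lost a call and 14 gained one.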

Other observations

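The excluded array ND 4 was nearer the HFD mean than the ND mean for 23 of the 34 members. By role this held for 8 of 11 cathepsins, 6 of 7 glycosidases, 6 of 7 lipid enzymes and cofactors, 3 of 5 membrane proteins and 0 of 4 proton pump genes. Among the 91 further lysosomal genes measured it held for 60. The share over all genes was not computed, so these counts are not read as particular to the members. For Lipa ND 4 was at 9.83, among HFD values of 9.82 to 9.93 and above ND 1 to 3 at 9.2 to 9.66. For Scarb2 it was at 9.06, among HFD values of 8.84 to 9.2 and above ND 1 to 3 at 8.61 to 8.73. For Atp6v1h it was at 7.15, below all other arrays. Of all 448 genes higher in HFD, ND 4 was nearer the HFD mean in 345 (77%).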
